A study of Gallus gallus with 15 samples.

Results

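The genes described here are 300 named genes of hen breast muscle whose level was close at 42 and 126 days of age and stood apart at 180 days. They were taken from 8646 gene symbols with a mean of at least 1 FPKM over the 15 birds, where FPKM scales the fragments of a gene by its length in kilobases and by the library total per 1000000. The lower of the medians of 42 and 126 days had to be at least 80% of the higher, and the 180-day median had to be at least 1.5 times the higher of them or at most 66.7% of the lower. The second most extreme 180-day bird toward the younger ages also had to lie beyond the second most extreme bird of each younger age. In all, 309 symbols met these conditions, 68 higher and 241 lower at 180 days, and a limit of 300 genes by size of change left 66 higher and 234 lower members. Because the levels at all 3 ages chose the members, the age differences below describe the selection and carry no test of it.

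The series holds poly(A) RNA sequencing of breast muscle from Jingyuan hens, a Chinese local breed, killed at 42, 126 or 180 days of age, with 5 hens per age in these files. The hens ate freely from the same feed, and the only stated difference between groups is age with the body weight that goes with it. Mean live weight of the groups was 0.422 ± 0.03 kg at 42 days, 1.68 ± 0.14 kg at 126 days and 2.03 ± 0.09 kg at 180 days, where the labels do not say what the error is. Each age was sampled once and from different hens, so age cannot be told apart from the day of slaughter or any other condition that went with it. The labels name myoblasts as the cell type, but the profile was that of whole muscle: 9 skeletal muscle marker genes found in the table summed to between 21300 and 50300 FPKM in every bird, and markers of blood, fat, vessel and matrix cells were also present.

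Skeletal muscle fibres sit in an extracellular matrix made largely by fibroblasts. Fibrillar collagens give it tensile strength, small proteoglycans such as decorin space the collagen fibrils, collagen VI links fibrils to cells, and laminin in the basement membrane ties the fibre surface to the matrix. Inside the fibre, contraction is triggered by calcium released from the sarcoplasmic reticulum, and small heat shock proteins and Z-disc proteins hold the contractile apparatus together under load. In a bulk sample, fewer cells of a type and less RNA per cell cannot be told apart.

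A pair of birds stood apart in immune or matrix markers and touched the lower members most, so results are given with and without them. In replicate 1 of 180 days the 10 B cell markers summed to 635 FPKM against at most 11.8 in the other 180-day birds, the 16 T cell markers to 162 against at most 15.4, and the 13 myeloid markers to 1590 against at most 142. In replicate 1 of 126 days the 19 fibroblast and matrix markers summed to 2530 FPKM against at most 796 in the other 126-day birds, and the myeloid markers to 631 against at most 250. The median correlation of these libraries with the other 14 was 0.85 and 0.879, against 0.891 for replicate 5 of 42 days and at least 0.918 for the other birds. The table holds no counts, so the depth behind each value is unknown. Replicate 5 of 42 days also differed from its age group, and it was kept where the pair was left out. Its skeletal muscle markers summed to 21300 FPKM against 37100 to 50300 in the other 42-day birds. It was the highest of its age in 49.1% of all symbols, beside 48.6% for replicate 1 of 126 days and 46.9% for replicate 1 of 180 days. The plot of marker sums shows every bird.

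**Figure D1:**
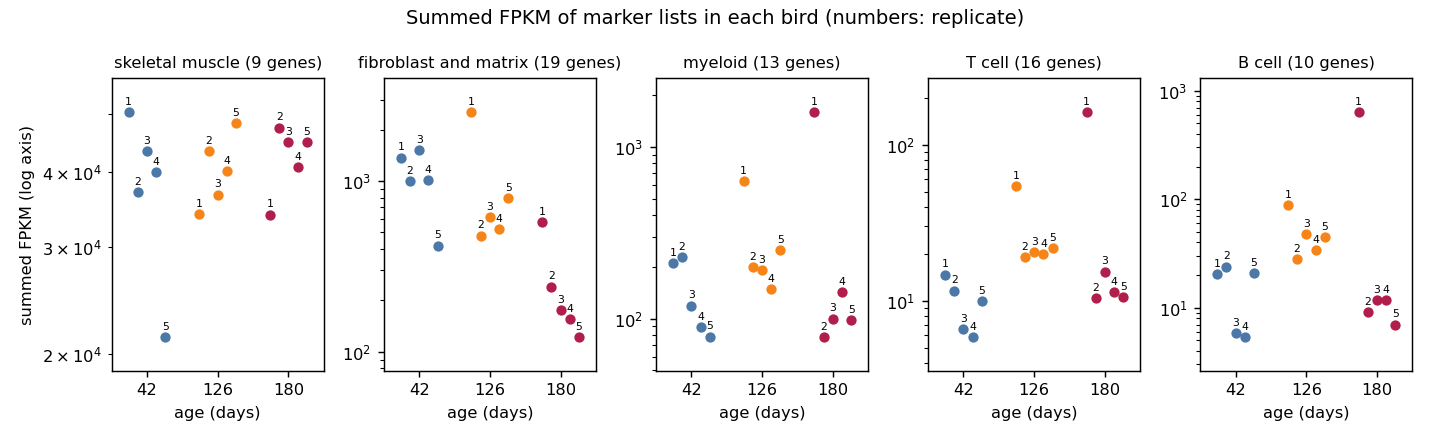
Summed FPKM (vertical log axis) of 5 marker lists in each of the 15 birds, by age in days; digits are replicate numbers. Replicate 1 of 180 days lay far above its age group in the myeloid, T cell and B cell lists (1590, 162 and 635 FPKM), and replicate 1 of 126 days was highest in the fibroblast and matrix list (2530 FPKM).

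The higher members stood above the younger ages in all 5 of the oldest birds, whereas the lower members stood below them in 4 of the 5. Each bird was summarised by the median, over the members, of log2(FPKM + 0.1) minus the gene's median over the 10 younger birds. For the higher members the 5 birds of 180 days had values of 0.75, 0.68, 0.95, 1.03 and 1.04, while the 10 younger birds lay between -0.07 and 0.04. For the lower members the 180-day values were 0.11, -0.95, -1.06, -0.93 and -0.97, so that replicate 1, the bird rich in lymphocyte and myeloid markers, sat with the younger birds. Replicate 1 of 126 days was at 0.98, and the other younger birds lay between -0.29 and 0.16. Over all 8646 symbols the birds lay between -0.30 and 0.29.

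**Figure D2:**
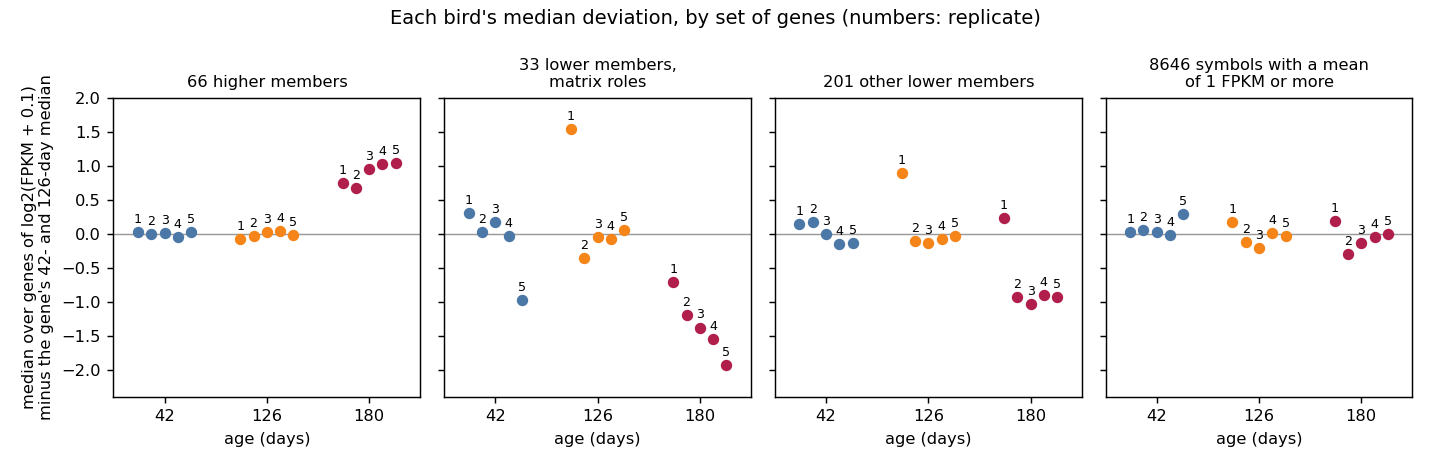
Median over genes of the log2 difference from the median of the 10 younger birds (vertical axis, log2 units) in each bird, by age in days, for higher members, lower members with matrix roles, all other lower members and all symbols; digits are replicate numbers. The 5 birds of 180 days lay at 0.68 to 1.04 for higher members, and replicate 1 of 180 days lay at 0.23 for the 201 lower members without a matrix role while the other 4 lay at or below -0.90.

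The rule allowed 1 bird per age to cross, and for the lower members that bird was mostly replicate 1. It was the least changed, and so the highest, of the 180-day birds in 170 of 234 lower members (72.6%), compared with 46.9% of all symbols. In 123 lower members it stood at or above the median of the 10 younger birds. It lay below all 10 younger birds in 42 lower members, against 160 to 182 for each of the other 4. How often this held among all symbols was not determined. Among the 66 higher members it was least changed, and so the lowest, in 23 (34.8%), compared with 13.9% of all symbols. It was at or below the younger median in 2 higher members. At 126 days, replicate 1 was the highest of its age in 201 lower members (85.9%), compared with 48.6% of all symbols.

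Most members lay close to the smallest change the rule allowed. The fold between the 180-day median and the nearer younger median had a median of 1.77 among higher members (1.52 to 16.72, with 22 at 2-fold or more) and 1.81 among lower members (1.52 to 6.92, with 78 at 2-fold or more). Lower members were also expressed at lower levels, with a median mean level of 4.08 FPKM, against 7.20 for higher members and 7.23 for all symbols of at least 1 FPKM.

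Both comparisons below use the same 180-day birds, so they are not independent. A differentially expressed gene (DEG) had an adjusted p below 0.05 (limma, Benjamini-Hochberg over all genes tested) and a log2 fold change of 1 or more in size. Between 42 and 180 days, 9 higher and 31 lower members were DEGs, where the background was 0.462% of 11692 genes called higher and 2.46% called lower. Between 126 and 180 days, 8 higher and 12 lower members were DEGs, with a background of 0.469% of 11515 genes higher and 0.452% lower. Since the rule used the same birds and contrasts, these counts only show how many members also reached the DEG threshold. Without replicate 1 of 126 days and replicate 1 of 180 days, 12 higher and 91 lower members were DEGs against 42 days and 14 and 47 against 126 days, of members chosen on all 15 birds. The median log2 fold change of the lower members was -0.76 against 42 days and -0.81 against 126 days with all birds, and -0.99 and -0.85 without these birds. Over all genes tested, the median log2 fold change was -0.13 against 42 days and 0.01 against 126 days. With quantile normalization, which sets the first of these to 0.00, the lower members had medians of -0.58 and -0.79 with 14 and 11 DEGs, the higher members had medians of 0.86 and 0.86, and the DEGs over all genes between 126 and 180 days shifted from 54 higher and 52 lower to 25 higher and 54 lower. The medians of the role groups below kept their direction under both other scalings. Since the rule chose these genes for that direction, this was nearly fixed in advance and carries no support. No member was a DEG between 42 and 126 days, a comparison in which the rule left little room for one (0.549% of 11482 genes were called higher and 1.92% lower at 126 days, and 2 lower members had an unadjusted limma p below 0.05).

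The member counts depended on single birds and on settings. Without replicate 1 of 180 days, 12 higher members were DEGs against 42 days and 17 against 126 days. Against 42 days there were 3 without replicate 3 of 180 days, 5 without replicate 5 of 180 days or replicate 2 or 4 of 42 days, and 7 to 11 without any of the other birds. Against 126 days there were 1, 2, 4 and 5 without replicates 2, 3, 4 and 5 of 180 days, 5 without replicate 1 of 126 days, and 6 to 9 without any of its other birds. For lower members there were 91 against 42 days and 52 against 126 days without replicate 1 of 180 days. Against 42 days the count was 43 without replicate 5 of 42 days and 9 to 15 without any of the other 8 birds. Against 126 days the count of lower members was 9 without replicate 1 or replicate 5 of 126 days and 2 to 5 without any of the other 7. With the highest entry per name there were 5 higher and 13 lower members against 42 days and 2 and 4 against 126 days, and without an FPKM minimum 7 and 15, and 5 and 3. A pseudocount of 1 gave 6 and 16, and 7 and 9. Of 32 members named here that were DEGs against 42 days, 11 kept the call in each of the 10 fits without 1 bird (ABI3BP, FKBP1B, HSPB7, LAMA2, LRRC2, MSC, MXRA5, PIK3R6, PLXDC2, PRPS2, TRIL) and 16 lost it in 5 or more. Against 126 days, 3 of 17 kept it (MXRA5, NMRK2, PIK3R6) and 9 lost it in 5 or more. With the highest entry alone, the calls of ABI3BP, LAMA2, PIK3R6 and PLXDC2 against 42 days and of PIK3R6 against 126 days were lost.

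Few members separated the ages without any overlap. All 5 birds of 180 days lay above all 10 younger birds in 10 higher members (15.2%) and below them in 15 lower members (6.4%), where 0.231% and 0.717% of the 8646 symbols lay above and below in this way, a contrast that the rule also used. The 10 were HSPB7, TMEM63C, PIK3R6, LRRC2, KIAA0930, EAF2, RMDN1, YWHAG, TTC7A and APPBP2. Among the 15 were FKBP1B, MXRA5, THSD7B, EDIL3, PRPS2, ABI3BP, LAMA2, TRIL, GAS1, IL1R1, ADAMTS2, PLXDC2, IRS1 and RGMB. For grouping by function, 158 members with a role that is well known, mostly from mammals, were sorted by hand after their values had been seen (124 lower and 34 higher), and the groups carry no test.

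The extracellular matrix took up 33 of the 124 lower members sorted by hand: 18 structural or matricellular proteins and 15 genes of matrix assembly and turnover. As single groups, the actin and membrane cytoskeleton (24 genes), signals and receptors (22) and transport and metabolism (20) were larger than either part. No role was given to 110 lower members, and the share of matrix genes among all symbols was not determined. The structural group had a median fold of 3.15 (1.87 to 6.29), with 10 of 18 DEGs against 42 days and 6 of 18 against 126 days. Of all genes tested, 2.46% and 0.452% were called lower, but the rule had chosen these 18 genes as lower. MXRA5, a secreted matrix-remodelling protein, measured 18.2, 12.5, 13.3, 10.2 and 4.55 FPKM at 42 days, 35.0, 9.45, 13.02, 12.6 and 11.6 FPKM at 126 days and 3.52, 2.71, 2.06, 1.07 and 1.87 FPKM at 180 days. All 5 oldest birds lay below every younger bird, and the log2 fold change was -2.30 ± 0.38 (SE) against 42 days and -2.73 ± 0.37 against 126 days.

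LAMA2, the laminin chain of the muscle basement membrane, measured 14.7, 18.4, 13.6, 14.7 and 7.15 FPKM at 42 days, 32.9, 10.2, 13.6, 16.2 and 8.61 FPKM at 126 days and 4.09, 5.30, 4.28, 3.52 and 2.35 FPKM at 180 days. All 180-day birds lay below all younger birds, and the log2 fold change was -1.77 ± 0.28 against 42 days and -1.91 ± 0.34 against 126 days. LAMA2 is the sum of 5 table entries with this name, and with its highest entry alone the difference turned to the opposite sign, at 1.54 against 42 days and 1.46 against 126 days; that entry stood at 0 in 3 birds, and the cause of the change of sign was not tested. ABI3BP, a secreted matrix protein, measured 14.8, 13.5, 18.8, 12.7 and 4.93 FPKM at 42 days, 58.5, 8.59, 11.99, 11.6 and 23.9 FPKM at 126 days and 4.05, 4.46, 3.24, 1.86 and 1.88 FPKM at 180 days. It too separated the oldest birds from all others, with a log2 fold change of -1.99 ± 0.37 and -2.56 ± 0.48. EDIL3, an integrin-binding matrix protein, lay between 0.21 and 0.28 FPKM at 180 days and between 0.30 and 5.62 FPKM in the younger birds.

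In other structural genes 1 or more birds overlapped. DPT (dermatopontin), which binds decorin and aids collagen fibril formation, measured 23.0, 11.4, 17.8, 9.11 and 2.21 FPKM at 42 days, 56.0, 9.88, 13.4, 9.46 and 8.74 FPKM at 126 days and 2.80, 4.40, 1.27, 1.57 and 0.76 FPKM at 180 days. Replicate 5 of 42 days, which had a median difference of -0.97 over the 33 matrix genes, overlapped with the oldest birds, and the log2 fold change was -2.39 ± 0.60 and -2.92 ± 0.55. COL18A1, a basement membrane collagen and the source of endostatin, measured 43.5, 26.8, 51.4, 29.6 and 11.8 FPKM at 42 days, 59.8, 26.0, 23.0, 31.0 and 17.6 FPKM at 126 days and 4.33, 12.3, 12.1, 7.18 and 6.27 FPKM at 180 days. Only replicate 5 of 42 days reached into the 180-day range, and here replicate 1 of 180 days was the lowest bird of all. POSTN (periostin), a matricellular protein of growing and healing connective tissue, lay between 14.6 and 44.4 FPKM at 42 days, 6.77 and 47.1 FPKM at 126 days and 1.13 and 13.6 FPKM at 180 days, with the 126- and 180-day ranges overlapping.

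DCN (decorin), the most abundant proteoglycan in the set, measured 143, 100, 137, 102 and 44.4 FPKM at 42 days, 545, 87.7, 103, 112 and 119 FPKM at 126 days and 76.3, 49.4, 36.8, 25.5 and 15.02 FPKM at 180 days. The oldest birds lay below all 126-day birds but overlapped with replicate 5 of 42 days, and neither comparison reached the DEG threshold (log2 fold change -1.47 ± 0.42 and -2.05 ± 0.52). The collagen VI chains COL6A2 and COL6A3 had log2 fold changes of -1.44 ± 0.51 and -1.57 ± 0.51 against 42 days and were DEGs in neither comparison. COL6A2 stood at 84.1 FPKM in replicate 1 of 180 days and at 13.5 to 25.0 FPKM in the other 4, and its highest entry alone gave 0.86 against 42 days. FMOD (fibromodulin), another collagen-binding proteoglycan, entered by its median although its log2 fold change against 42 days was -0.12 ± 0.51. Replicate 5 of 42 days stood at 0.52 FPKM and replicate 5 of 180 days at 5.37 FPKM, and the FMOD value was -0.55 without the first and -0.51 without the second. It was 0.04 without replicate 1 of 42 days and 0.03 without replicate 1 of 180 days.

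Among further structural members, MFAP5, a protein of elastin-associated microfibrils, had a median of 22.5 FPKM at 42 days, 23.8 at 126 days and 5.43 at 180 days. CCDC80, a secreted matrix-binding protein, had medians of 16.4, 15.2 and 5.11 FPKM. SMOC2, which binds calcium and growth factors in the matrix, had log2 fold changes of -1.45 ± 0.35 and -1.50 ± 0.52. LTBP2, which binds fibrillin microfibrils, was a DEG against 126 days only, at -1.25, a call lost in 9 of the 10 fits without 1 bird, and whether its 2 comparisons differed was not tested. TGFBI, an adhesion protein induced by TGF-beta, lay between 1.22 and 2.27 FPKM in 4 birds of 180 days and at 6.53 FPKM in replicate 1.

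The 15 genes of matrix assembly and turnover had a median fold of 1.98 (1.65 to 4.38), with 3 DEGs against 42 days (SERPINH1, ADAMTS2, ADAMTS9) and 0 against 126 days by limma, where 12 of the 15 had an unadjusted p below 0.05. The shares of all genes tested that were called lower were 2.46% and 0.452%. SERPINH1 (HSP47), the collagen-specific chaperone, measured 62.0, 47.1, 75.5, 33.3 and 27.9 FPKM at 42 days, 70.3, 22.7, 67.8, 21.9 and 54.1 FPKM at 126 days and 36.0, 11.01, 15.1, 15.1 and 17.2 FPKM at 180 days. Apart from replicate 1, the oldest birds lay below all younger birds. The calls of SERPINH1 and ADAMTS2 were lost in 8 and 7 of 10 fits without 1 bird. ADAMTS2, the protease that removes the amino-terminal propeptide of procollagen, lay at 1.74 to 2.68 FPKM at 42 days, 1.41 to 6.63 at 126 days and 0.95 to 1.17 at 180 days, with no overlap. LOXL2, which cross-links collagen, had medians of 6.05, 6.38 and 2.78 FPKM, and MMP2, a gelatinase, had medians of 35.7, 40.5 and 13.1 FPKM, though neither was a DEG. HTRA3, a secreted serine protease, stood at 4.15 FPKM in replicate 1 of 180 days and at 0.49 to 0.88 FPKM in the others.

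Matrix genes outside the rule were lower at 180 days as well. Of the 19 genes of the fibroblast and matrix list, 6 were members (COL6A2, COL6A3, POSTN, DCN, FMOD, DPT). Of the other 13, 8 were DEGs lower at 180 than at 42 days (COL1A1, COL1A2, COL3A1, COL5A1, COL5A2, FBN1, LUM, SPARC) and 3 were lower at 180 than at 126 days (SPARC, THBS1, TNC). Among all genes tested, 2.46% and 0.452% were called lower in these comparisons. The median log2 fold change of the whole list was -2.06 against 42 days and -1.87 against 126 days, beside -0.13 and 0.01 over all genes tested. This median includes the 6 members, which the rule chose as lower. For the other 13 genes, the median log2 difference from the median of the younger birds was -0.53, -1.79, -2.08, -2.24 and -2.67 in the 180-day birds. In the younger birds it was -0.79 to 1.35. The list was chosen with earlier results of these data known. Its summed level had a median of 1010 FPKM at 42 days (418 to 1520), 612 at 126 days (479 to 2530) and 176 at 180 days (122 to 572). The sum, which the most abundant genes weigh on most, thus had a lower median at 126 than at 42 days. Gene by gene, limma gave the list no common direction between these ages. Of its 19 genes, 10 had a log2 fold change below 0 between 42 and 126 days. By limma, 0 were DEGs lower at 126 days and 2 were DEGs higher (THBS1, TNC). Over the 13 genes that are not members, the median difference was 1.35 in replicate 1 of 126 days and -0.65 to -0.18 in the other birds of that age. At 42 days it was -0.79 in replicate 5 and 0.18 to 0.69 in the others. The fits therefore do not show that the list was level between these ages. The members had close medians at these ages by the rule.

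**Figure D3:**
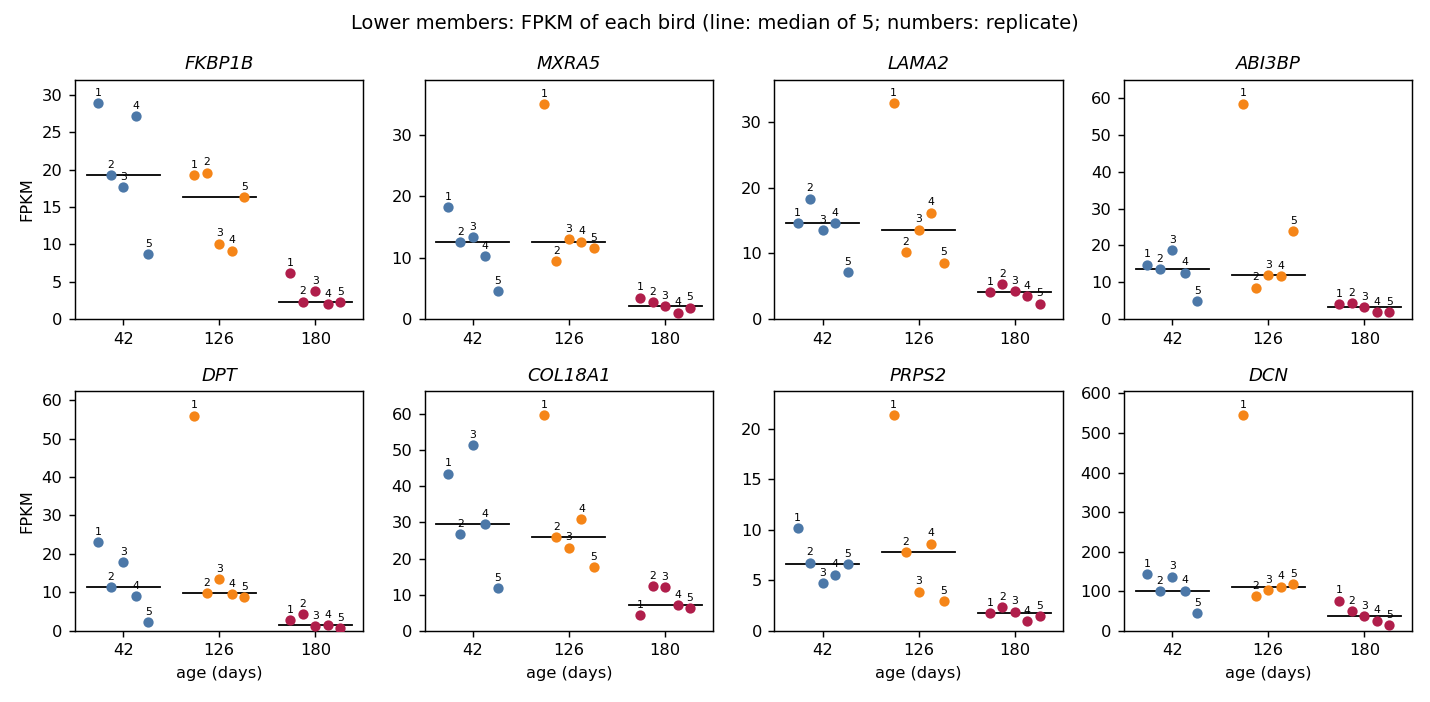
FPKM (vertical axes, starting at 0) of 8 lower members in each bird, by age in days; lines are medians of 5 birds and digits are replicate numbers. MXRA5, LAMA2, ABI3BP, FKBP1B and PRPS2 had every 180-day bird below every younger bird, while replicate 5 of 42 days overlapped with 180 days in DPT, COL18A1 and DCN.

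The lower member with the largest ratio of medians was FKBP1B (calstabin 2), a small protein that binds the ryanodine receptor, the calcium release channel of the sarcoplasmic reticulum. It measured 28.9, 19.3, 17.7, 27.2 and 8.69 FPKM at 42 days, 19.2, 19.6, 10.1, 9.18 and 16.3 FPKM at 126 days and 6.12, 2.36, 3.79, 1.99 and 2.23 FPKM at 180 days. Its medians differed by 6.92-fold without overlap, and the log2 fold change was -2.60 ± 0.37 against 42 days and -2.20 ± 0.33 against 126 days. Among 4 further lower members tied to calcium, AKAP6, which anchors protein kinase A at the sarcoplasmic reticulum and nuclear envelope, was a DEG against 42 days (-1.32), but 8 of 10 fits without 1 bird lost the call and its highest entry alone gave -0.03. ATP2A2, the calcium pump of slow fibres and heart, had log2 fold changes of -0.76 ± 0.38 and -0.81 ± 0.36, with 10.7 FPKM in replicate 1 of 180 days and 2.70 to 5.41 FPKM in the other 4. SRI (sorcin), a regulator of the ryanodine receptor, stood at 24.7 FPKM in that replicate and at 2.29 to 4.91 FPKM in the rest.

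Signals and receptors made up 22 lower members, with a median fold of 1.80 (1.55 to 3.72), 3 DEGs against 42 days and 1 against 126 days. Of all genes tested, 2.46% and 0.452% were called lower. GAS1, a membrane protein that binds hedgehog and arrests growth in cultured cells, measured 2.64, 2.46, 2.93, 2.25 and 1.73 FPKM at 42 days, 6.67, 2.19, 2.80, 1.69 and 2.77 FPKM at 126 days and 1.19, 0.84, 0.46, 1.1 and 0.85 FPKM at 180 days. The oldest birds were below all others, at a log2 fold change of -1.38 ± 0.29 and -1.64 ± 0.37. IRS1, the adaptor that couples the insulin and IGF1 receptors to PI3-kinase, measured 5.95, 3.46, 4.07, 5.73 and 7.62 FPKM at 42 days, 4.92, 3.80, 4.37, 7.84 and 7.74 FPKM at 126 days and 2.00, 2.94, 2.72, 3.09 and 3.03 FPKM at 180 days. Its 180-day values all lay below the younger ones, yet its log2 fold change of -0.90 ± 0.24 and -0.98 ± 0.24 was below the DEG size. Its limma adjusted p of 0.065 and 0.071 also missed the threshold.

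RGMB, a coreceptor of bone morphogenetic proteins, lay between 1.63 and 2.08 FPKM at 180 days and between 2.18 and 6.40 FPKM before. IL1R1, the receptor of interleukin 1, lay between 0.28 and 0.80 FPKM at 180 days and between 0.87 and 5.31 FPKM before. Both separated the 180-day birds from all younger birds and neither was a DEG. SEMA3D, a secreted guidance factor, was a DEG against 42 days at -1.99 ± 0.46, a call lost in 8 of 10 fits without 1 bird and with the highest entry alone (-0.81). FRZB, a secreted WNT antagonist, had medians of 13.3, 16.6 and 6.41 FPKM. TGFBR3 (betaglycan), a coreceptor of TGF-beta, was a DEG against 42 days at -1.01, a call that 8 of 10 fits without 1 bird lost.

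The 20 lower members in transport and metabolism had a median fold of 2.11 (1.56 to 4.36). PRPS2, which makes phosphoribosyl pyrophosphate for nucleotide synthesis, measured 10.2, 6.74, 4.75, 5.57 and 6.62 FPKM at 42 days, 21.3, 7.81, 3.88, 8.62 and 2.91 FPKM at 126 days and 1.75, 2.38, 1.89, 0.92 and 1.47 FPKM at 180 days. Its 180-day values lay below all younger ones, with a log2 fold change of -1.96 ± 0.28 and -2.05 ± 0.47. SLC7A5, which carries leucine and other large neutral amino acids, had a median of 33.7 FPKM at 42 days, 28.7 at 126 days and 15.6 at 180 days and was a DEG against 42 days (-1.09). BCAT1, the cytosolic branched-chain aminotransferase, was also a DEG against 42 days (-1.20), lost in 8 of 10 fits without 1 bird. NMRK2, a muscle kinase of the NAD salvage route, was one against 126 days, with medians of 78.2, 91.2 and 37.5 FPKM. Its limma adjusted p against 126 days ranged from 0.012 to 0.18 over the alternative settings that kept all birds. Replicate 5 of 42 days stood at 9.46 FPKM, below the 180-day range of 19.9 to 43.5 FPKM. The NMRK2 log2 fold change against 42 days was -0.72 ± 0.57.

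ENO1, the enolase of non-muscle and immature muscle cells, measured 221, 223, 246, 186 and 186 FPKM at 42 days, 206, 164, 210, 212 and 135 FPKM at 126 days and 174, 128, 127, 78.03 and 86.6 FPKM at 180 days. Its log2 fold change was -0.89 ± 0.21 against 42 days, below the DEG size. LDHB, the heart-type lactate dehydrogenase chain, stood at 34.5 FPKM in replicate 1 of 180 days and at 4.61 to 6.5 FPKM in the other 4. Of the glycolysis and glycogen list, 32 genes were tested and 0 were DEGs in either comparison by limma, with an unadjusted p below 0.05 for 3 against 42 days and 6 against 126 days.

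Of 11 lower transcription factors, ZNF385D, a zinc finger protein, and MSC (musculin), a repressor of myogenic bHLH factors, were DEGs against 42 days, at -1.98 ± 0.45 and -1.41. In that comparison 2.46% of all genes tested were called lower. The call of ZNF385D was lost in 8 of 10 fits without 1 bird and that of MSC in 0. TBX18, a T-box factor of mesenchymal cells, had medians within the rule but a log2 fold change of only -0.42 ± 0.39 against 42 days. The lower members with the highest level included KLHL31, a kelch protein of the sarcomere, which measured 171, 184, 145, 170 and 111 FPKM at 42 days, 177, 139, 139, 177 and 156 FPKM at 126 days and 61.7, 79.0, 99.6, 131 and 146 FPKM at 180 days. Unlike most lower members, it was lowest in replicate 1 of 180 days. PLXDC2, a membrane protein with a plexin-like domain, separated the oldest from the younger birds, at a median of 3.29 FPKM at 180 days.

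Some lower members were not lower in replicate 1 of 180 days at all. The 24 genes of the actin and membrane cytoskeleton had a median log2 difference from the younger birds of 1.03 in that bird and of -0.95 to -0.86 in the other 4, and the 9 blood and immune genes one of 1.70 against -1.31 to -0.74. ARHGDIB, a signalling regulator abundant in blood cells, stood at 93.0 FPKM in that bird and at 4.09 to 6.66 FPKM in the other 4. ACTR3, a subunit of the actin-branching ARP2/3 complex, stood at 67.4 FPKM against 8.01 to 10.7, and ARPC5, another subunit, at 63.1 FPKM against 6.06 to 7.54. LY86, a partner of a Toll-like receptor homologue on B and myeloid cells, stood at 40.8 FPKM against 0.88 to 4.26. No gene of either group was a DEG in either limma comparison, and an unadjusted p below 0.05 was reached by 8 of the 24 in each comparison and by 1 and 2 of the 9. The B cell, T cell and myeloid markers of this bird moved with them, and their part in these values was not tested.

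The higher members were fewer and more varied. The one with the largest ratio of medians was CA12, a membrane carbonic anhydrase, at 16.72-fold, and it was listed at 0 in 1 bird of 42 and 1 bird of 126 days. It measured 0, 0.16, 0.35, 0.38 and 15.9 FPKM at 42 days, 0, 0.09, 0.66, 0.71 and 0.36 FPKM at 126 days and 2.09, 15.4, 14.3, 6.02 and 2.91 FPKM at 180 days. Replicate 5 of 42 days lay above the highest 180-day bird. NIM1K, a kinase of the AMPK-related family, was 8.62 FPKM in replicate 1 of 42 days, 0.34 to 2.58 FPKM in the other younger birds and 1.09 to 11.9 FPKM at 180 days.

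HSPB7, a small heat shock protein of heart and skeletal muscle, combined a large difference with clean separation. It measured 6.63, 11.03, 69.4, 36.8 and 36.7 FPKM at 42 days, 15.1, 104, 21.3, 31.1 and 78.5 FPKM at 126 days and 135, 196, 152, 187 and 275 FPKM at 180 days. All 5 oldest birds were above all others, with a log2 fold change of 2.97 ± 0.53 against 42 days and 2.26 ± 0.47 against 126 days. Beside it stood LMCD1, a LIM protein of striated muscle, at 13.7 to 44.5 FPKM at 180 days, 3.67 to 9.0 FPKM at 126 days and 4.64 to 26.0 FPKM at 42 days, where replicate 3 of 42 days overlapped. PDLIM3, an actinin-binding Z-disc protein and the most abundant member, had medians of 1116, 1153 and 2041 FPKM, with a log2 fold change of 1.02 ± 0.35 and 0.80 ± 0.27 that was not a DEG. CAST (calpastatin), the inhibitor of the calpain proteases, had medians of 10.6, 11.4 and 20.2 FPKM with overlapping ranges.

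In the stretch and Z-disc list, HSPB7 and PDLIM3 were the only members. Of 21 tested genes, 3 were DEGs higher at 180 days in each comparison, where 0.462% and 0.469% of all genes tested were called higher. They were HSPB7, HSPB8 and TCAP against 42 days and HSPB7, ANKRD2 and KLHL30 against 126 days. The rule had chosen HSPB7 as higher. With members included, the list had a median log2 fold change of 0.59 against 42 days and 0.32 against 126 days. Over all genes tested it was -0.13 and 0.01. Of the 21 genes, 8 were below 0 against 42 days and 5 against 126 days. In the heat shock and chaperone list of 34 tested genes, HSPB7, HSPB8, HSPB1 and HSPA2 were DEGs higher and SERPINH1 lower against 42 days. Both HSPB7 and SERPINH1 are members, and 2.46% of all genes tested were called lower in that comparison. Against 126 days HSPB7 alone was higher, a call lost in 7 of 10 fits without 1 bird.

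LRRC2, a leucine-rich repeat protein abundant in striated muscle, measured 31.5, 44.5, 65.0, 48.5 and 37.1 FPKM at 42 days, 30.9, 57.7, 56.8, 52.1 and 37.1 FPKM at 126 days and 95.5, 118, 125, 136 and 92.6 FPKM at 180 days. There was no overlap, and the log2 fold change was 1.35 ± 0.20 and 1.30 ± 0.20. TMEM63C, a mechanosensitive channel protein, measured 1.12, 5.11, 3.00, 2.75 and 5.25 FPKM at 42 days, 3.21, 1.62, 2.49, 2.95 and 6.24 FPKM at 126 days and 6.28, 15.5, 29.7, 12.6 and 14.8 FPKM at 180 days. Its lowest 180-day bird was only just above the highest younger bird. KIAA0930, whose function is not well known, was a DEG in both comparisons (1.11 ± 0.22 and 1.14 ± 0.18), with the call lost in 3 and 2 of 10 fits without 1 bird and in both with the highest entry alone (0.84 ± 1.12 and 3.01 ± 1.21).

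Of 11 higher members in kinase and phosphatase signalling, PIK3R6, a regulatory subunit of PI3-kinase gamma, stood out for the tightness of its levels. It measured 7.70, 6.57, 3.10, 4.12 and 3.42 FPKM at 42 days, 3.97, 4.62, 5.91, 4.87 and 3.81 FPKM at 126 days and 11.6, 12.6, 10.9, 13.5 and 12.4 FPKM at 180 days. The log2 fold change was 1.36 ± 0.25 and 1.39 ± 0.16, with no overlap. PIK3R6 is the sum of 3 entries, and its highest entry alone gave 0.39 and 0.18 and no DEG. YWHAG, a 14-3-3 adaptor protein, measured 98.3, 99.2, 157, 123 and 164 FPKM at 42 days, 99.2, 109, 127, 104 and 144 FPKM at 126 days and 188, 204, 260, 227 and 221 FPKM at 180 days, again without overlap but below the DEG size. PPP1R2 and PPP1R1A, inhibitors of protein phosphatase 1, had log2 fold changes of 0.62 ± 0.18 and 0.75 ± 0.27 against 42 days. AKAP7, an anchor of protein kinase A, FNIP1, a partner of folliculin and AMPK, and PIK3R3, a regulatory subunit of PI3-kinase, were likewise members and no DEGs.

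Of 6 higher transcriptional regulators, BHLHE40, a clock-linked repressor, measured 90.3, 43.1, 64.5, 36.8 and 24.2 FPKM at 42 days, 25.5, 42.5, 14.97, 50.5 and 37.0 FPKM at 126 days and 87.0, 84.6, 87.6, 92.3 and 95.4 FPKM at 180 days. The 5 oldest birds were close to each other, above all 126-day birds and above all 42-day birds but replicate 1, and BHLHE40 was a DEG against 126 days only (1.51 ± 0.27), a call lost in 5 of 10 fits without 1 bird. The difference between its 2 comparisons was not tested. Of 19 tested genes of the clock list, NR1D1 and PER3 were further DEGs higher at 180 than at 126 days. Neither is a member or was a DEG between 42 and 180 days. Both were among the clock DEGs between 42 and 126 days (1 higher and 3 lower at 126 days). The hour of sampling is not given in the sources used here. EAF2, an elongation factor partner, separated the oldest from the younger birds, at 8.24 to 12.3 FPKM against 1.48 to 5.95 FPKM. JUND, an AP-1 subunit, had overlapping ranges and a log2 fold change of 0.85 ± 0.44 and 0.74 ± 0.46.

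Among the 4 mitochondrial and RNA-modifying genes there was no DEG by limma in either comparison, and 2 had an unadjusted p below 0.05 against 42 days and 3 against 126 days. MFN2, which fuses mitochondria, had medians of 57.8, 55.1 and 90.4 FPKM, CHCHD2, a mitochondrial intermembrane protein, 111, 107 and 228 FPKM, and GTPBP3, which modifies mitochondrial tRNA, 1.05, 1.13 and 3.68 FPKM. RMDN1, a microtubule-linked protein, separated the oldest from the younger birds, at 9.10 to 16.1 FPKM against 2.01 to 7.69 FPKM. NCAPD3, a subunit of condensin II, was a DEG against 42 days at 2.23 ± 0.50, but 6 of 10 fits without 1 bird lost the call and its highest entry alone gave 0.32. Of the metabolic genes, GPAM, the first enzyme of glycerolipid synthesis, had a log2 fold change of 0.83 ± 0.32 and 1.00 ± 0.28, and PHOSPHO1, a phosphatase that frees choline from phosphocholine, had medians of 25.1, 20.7 and 38.6 FPKM. The oxidative phosphorylation list had 0 DEGs of 41 tested genes in both comparisons by limma, with 1 and 4 at an unadjusted p below 0.05 and median log2 fold changes of -0.07 and -0.01, and it held no member. Of the 28 lists of cell type markers and pathways, 18 held no member, among them the skeletal muscle, endothelial, adipocyte, T cell, B cell and myeloid markers. The members were 300 of 8646 symbols, and the number that short lists would hold at this share was not determined. The empty lists therefore carry no result about these cells.

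**Figure D4:**
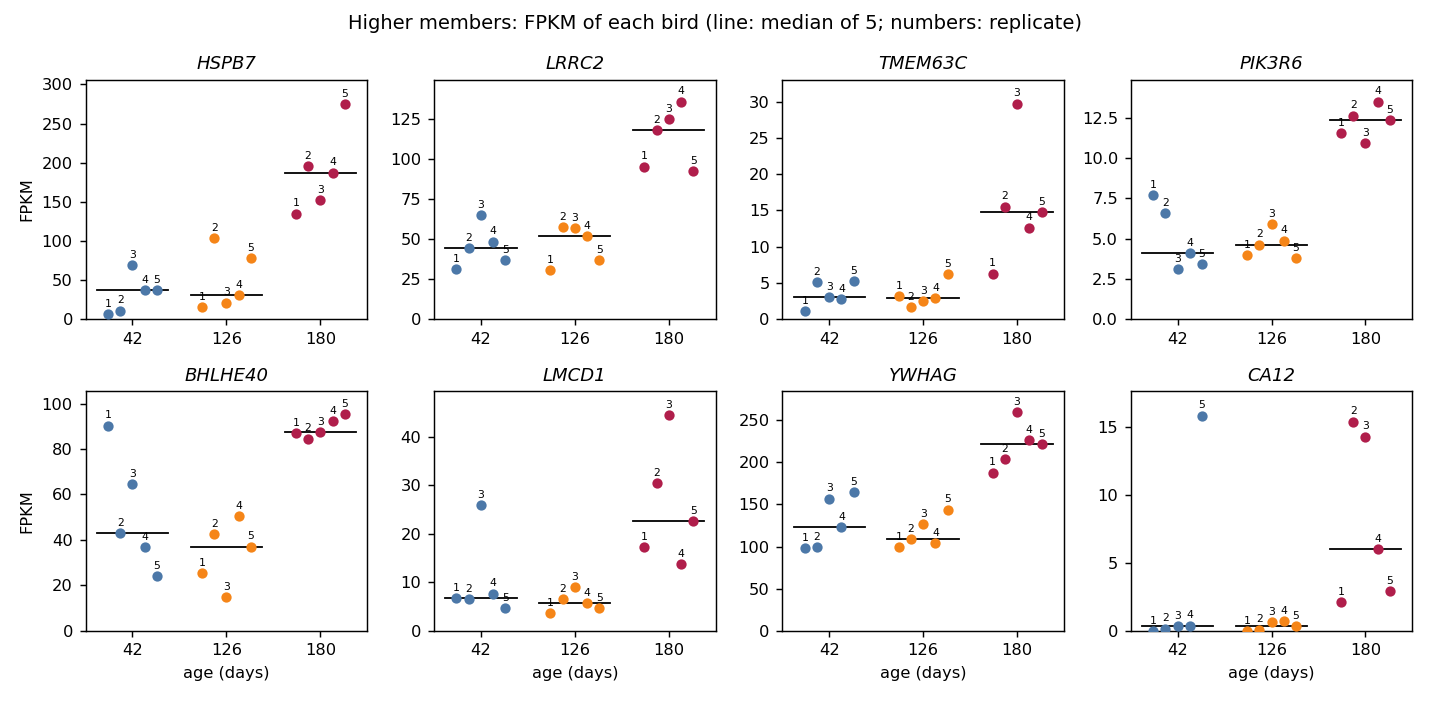
FPKM (vertical axes, starting at 0) of 8 higher members in each bird, by age in days; lines are medians of 5 birds and digits are replicate numbers. HSPB7, LRRC2, TMEM63C, PIK3R6 and YWHAG had every 180-day bird above every younger bird. BHLHE40 and LMCD1 each had a 42-day bird within the 180-day range, and CA12 had one above it.

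By role, the matrix structure genes had the lowest value of the 13 groups in replicates 3, 4 and 5 of 180 days and the highest in replicate 1 of 126 days, as the map of roles by bird shows. In replicate 2 of 180 days the 5 calcium handling genes were lower (-1.52), and in replicate 1 the transcription factors stood level with the matrix. For the matrix structure genes the median difference was -1.07, -1.40, -1.68, -2.02 and -2.52 in the 180-day birds. It was 1.84 in replicate 1 of 126 days and -1.30 in replicate 5 of 42 days. This group was thus below the younger median in replicate 1 of 180 days too, though least so and within the range of the younger birds. The 11 transcription factors (-1.07) and the 22 signals and receptors (-0.66) were also lower in that bird. Transport and metabolism (-0.06) stood with the younger birds there. The calcium handling genes were not lower in replicate 1 of 180 days, with a median difference of 0.41, against -1.52 to -0.54 in the other 180-day birds.

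**Figure D5:**
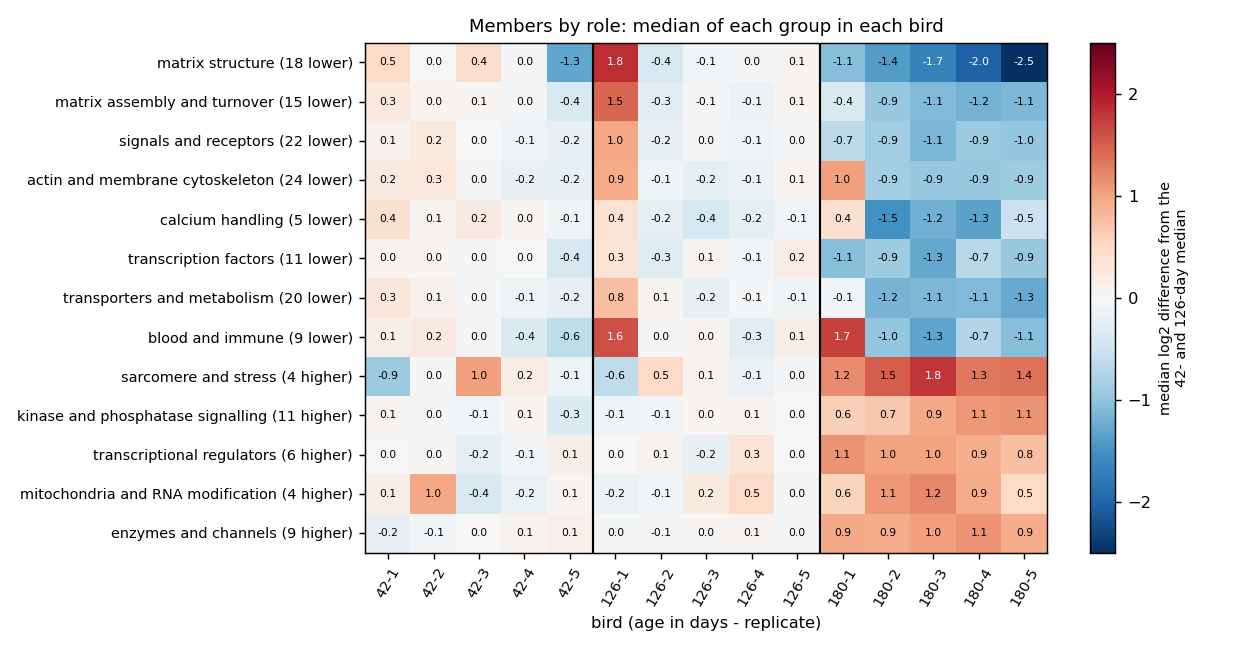
Median log2 difference from the 10 younger birds (colour and printed value, log2 units) for 13 hand-made role groups (rows, with number of members and direction) in each bird (columns, age in days and replicate). Replicate 1 of 180 days was at 1.03 for the actin and membrane cytoskeleton and 1.70 for blood and immune genes, where the other 180-day birds were at or below -0.74.

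Within ages, lower members varied together from bird to bird and higher members did not. After removing each age's mean, the correlation between a pair of lower members had a median of 0.48 over 15 birds, compared with 0.16 for pairs of all 8646 symbols and 0.03 for pairs of higher members. Without replicate 1 of 126 days and replicate 1 of 180 days the median was 0.11 for lower members, the same as for all symbols (0.11). The 33 matrix genes were an exception, with a median of 0.64 over 15 birds and 0.43 over 13. Those 13 birds include replicate 5 of 42 days. It stood at -0.97 over the 33 genes, beside -0.04 to 0.31 in the other 42-day birds, and its part in the 0.43 was not tested. The points share libraries and their FPKM scaling, and the values are descriptions without a test.

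Some members are also neighbours in the gene order of RefSeq (GRCg7b), to which 290 members matched by symbol. This is a description only, since the number of adjacent pairs in other gene sets of this size was not determined. JAZF1, CREB5, TRIL and CHN2 formed a run of 4 lower members. Of these, TRIL, an accessory protein of Toll-like receptor signalling, separated the oldest birds, at 0.64 to 1.39 FPKM at 180 days and 2.17 to 8.99 FPKM in the younger birds. DCN and BTG1, and COL18A1 and SLC19A1, were further adjacent lower pairs. Positions are not given because the build behind the entries is not given in the sources used here.

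The members nearest the limits show how much rests on them. NBEA, higher, at 1.519-fold, and KDELC1, lower, at 1.516-fold, were the last members kept, while H6PD (1.513-fold) and B4GALT1 met every condition and were removed by the limit of 300. HEXIM1 (1.482-fold) and PDK1 (1.499-fold) lay just outside the size condition. BICC1 was the member nearest the 80% limit between the younger medians, and ENTPD2 was just outside it. NBEA had the lowest mean, at 1.002 FPKM, and SNED1, with 0.975 FPKM, was just outside. Of the 300 members, 220 are sums of more than 1 entry with the same name, and in 57 of these the highest entry stood at 0 in at least 1 bird. The main values are therefore sums, and the highest entry alone is given only as an alternative. Gene names shared by near-identical copies could not be checked from the table.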

How the data were processed

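Breast muscle RNA of 15 Jingyuan hens (5 each at 42, 126 and 180 days) was sequenced after poly(A) selection. Per the study's methods, reads were trimmed and quality-checked by the authors, and the submitters' notes name HISAT2 2.2.1 and StringTie 2.1.6; the genome build is not given in the sources used here. The authors deposited FPKM with 2 decimals per table entry, without counts, so depth and counting error are unknown and limma replaced the count test that the study used.

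Entries were summed by gene name (48836 entries, 23599 names), no column was left unused (0), and symbols were read with Python 3.11.15, numpy 2.4.6 and pandas 2.3.3. FPKM sums per bird were 413638 to 481698. Pairs of ages were fitted with limma 3.58.1 (R 4.3.3, trend) on log2(FPKM + 0.1), which understates changes of low genes, for names with a pair mean of at least 0.5 FPKM, without covariates. DEGs had a Benjamini-Hochberg adjusted p below 0.05 and a log2 fold change of 1 or more in size. The fit was tested on simulated data.

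The members and the lists of 673 marker and pathway genes (569 found) were chosen with earlier results of these data known. The naming rule took members in any list, the 12 largest changes in each direction, the 8 highest means and the genes at each limit of the rule. Others were named for a known role or for separating the ages, after their values had been seen, and a few members are not reported here. The labels give no batch and do not say whether replicate numbers pair birds. Replicates are single birds of a group, so p-values measure the spread between birds. Alternatives were pseudocount 1, other FPKM minimums, rescaled or quantile-normalized values, the highest entry per name, all ages in 1 fit, a replicate block, other limits of the rule, and leaving out birds.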

Additional observations from a re-analysis of the deposited data

Results flagged for a closer look

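Of 252 groups of 5 birds examined (84 members at 3 ages), 53 (21.03%) had 1 bird far from the other 4 by Dixon's gap test. About 1 in 20 groups of independent, normally distributed values would pass its cut. That rate cannot be set against this share. The test used FPKM without logs, the genes shared the same birds, and the rule let 1 bird per age cross. Replicate 1 of 126 days gave 24 of the 53 groups and replicate 1 of 180 days 12, the birds with high matrix and myeloid or lymphocyte and myeloid markers, and the part of those cells was not tested.

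In replicate 1 of 126 days, matrix genes stood high, with DCN at 544.62 FPKM, COL6A2 at 319.54, MMP2 at 209.17, MFAP5 at 183.38, CCDC80 at 128.72, COL6A3 at 84.73, DPT at 55.98, SMOC2 at 51.51, MXRA5 at 35.03 and LOXL2 at 17.09 FPKM. Signal and receptor genes were high there too, with FRZB at 50.46, TGFBR3 at 38.93, GAS1 at 6.67, RGMB at 6.40, IL1R1 at 5.31 and TRIL at 8.99 FPKM. So were ARPC5 (52.47), ARHGDIB (51.30), LY86 (37.95), LDHB (34.44), SRI (26.74), ACTR3 (25.19), BICC1 (11.12) and KDELC1 (3.88 FPKM). In replicate 1 of 180 days the high genes were ARHGDIB (92.98), COL6A2 (84.05), ACTR3 (67.38), ARPC5 (63.10), LY86 (40.75), SERPINH1 (36.04), LDHB (34.47), SRI (24.70), TGFBI (6.53), HTRA3 (4.15) and MSC (2.85 FPKM), and FNIP1 was low, at 9.98 FPKM.

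Other birds stood out in 17 groups, mostly of higher members. At 42 days these were CA12 (15.86 FPKM) in replicate 5, NIM1K (8.62) in replicate 1, LMCD1 (25.96), SCARNA8 (3.10) and PIK3R3 (5.44) in replicate 3, GTPBP3 (2.80) and CHCHD2 (425.76) in replicate 2, and ARPC5, low at 12.79, in replicate 4. At 126 days they were NCAPD3 (1.98), SAXO1 (5.07) and CHCHD2 (195.82) in replicate 3, DCXR, low at 0.23, in replicate 4 and TTC7A (6.93) in replicate 5. At 180 days they were PDLIM3 (3410.1) and BCAT1 (9.80) in replicate 4 and FMOD (5.37) and TTC7A (22.40) in replicate 5.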

How the results depend on the processing

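Before the limit of 300, the rule gave 68 higher and 241 lower genes. A mean of at least 5 FPKM left 45 and 99, younger medians within 1.1-fold 39 and 119, a change of at least 2 times 22 and 78, and no crossing bird 11 and 15. With quantile normalization 46 of the 68 and 107 of the 241 genes were kept, and with the highest entry per name 34 and 153. Leaving out 1 bird gave 60 to 105 higher genes (the most without replicate 2 of 180 days) and 198 to 359 lower genes. DEGs between 42 and 180 days (342) became 223 with quantile normalization and 172 with the highest entry, and 176 (without replicate 2 of 42 days) to 770 (without replicate 1 of 180 days) on leaving out 1 bird. DEGs between 126 and 180 days (106) became 53 without an FPKM minimum and 20 with the highest entry, and 15 (without replicate 2 of 180 days) to 378 (without replicate 1 of 180 days). DEGs between 42 and 126 days (283) became 186 with pseudocount 1, 169 without a minimum and 51 with the highest entry, and 77 (without replicate 2 of 42 days) to 375 (without replicate 1 of 126 days).

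Leaving out both replicate 1 of 126 days and replicate 1 of 180 days, an alternative chosen after seeing the data, gave 770 DEGs against 42 days, 336 against 126 days and a log2 fold change of 0.026 for FMOD against 42 days. The labels do not say whether replicate numbers pair birds, and same-numbered birds did not all deviate together (correlations -0.128 to 0.32, over 0.1 in all 3 pairs of ages for replicates 1 and 4 but not for replicates 2, 3 and 5), so the numbers were not used as pairs. In the 3 pairs of ages, 3 (42 and 126 days), 1 (42 and 180 days) and 6 (126 and 180 days) of 10 birds correlated best with the bird of their own number. A replicate block gave 270 DEGs between 126 and 180 days, with 14 higher and 44 lower members, 307 between 42 and 180 days, with 9 and 29, and 264 between 42 and 126 days. The highest entry reversed COL6A2 (0.86) and LAMA2 (1.54) against 42 days and LAMA2 (1.46) against 126 days. Leaving out 1 bird gave -0.55 to 0.045 for FMOD and -1.09 to 0.028 for ARHGDIB against 42 days, and -0.43 to 0.089 for H6PD and -0.77 to 0.0097 for ACTR3 against 126 days. Over 90 genes examined singly, 25 (42 days) and 16 (126 days) lost a DEG call in at least 1 of their fits, and 26 and 31 gained one. Where no value above shows it, the cause was not tested. Without counts, what depth limits cannot be given.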

Other observations

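The 5 entries named LAMA2 did not share their level in the same way in every bird. The entry with the highest total held 53.1% of the LAMA2 FPKM over all birds, stood above 0 in all 5 birds of 180 days and was listed at 0 in 3 younger birds. For COL6A2 the highest of 5 entries held 59.8%. FKBP1B, with 3 entries, had 91.7% in its highest entry, and HSPB7 and PRPS2 have 1 entry each.

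GTPBP3, NCAPD3, SAXO1, DCXR and the small RNA gene SCARNA8 were among the 12 largest increases of medians, at levels of a few FPKM. DCXR, which reduces dicarbonyl compounds and xylulose, had medians of 0.54, 0.64 and 1.63 FPKM at 42, 126 and 180 days. THSD7B, a thrombospondin repeat protein, lay at 0.29 to 0.58 FPKM at 180 days and 0.82 to 3.19 FPKM in the younger birds, with a log2 fold change of -1.80 ± 0.36 against 42 days and -1.80 ± 0.37 against 126 days.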
